A study of Homo sapiens with 9 samples.

Results

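The tumour suppressor genes RB1, CDKN2A, CDKN2B, SMAD4, BRCA1, BRCA2 and NF1, and MTAP, the metabolic neighbour of CDKN2A, were followed as a fixed list of 8 genes, all of which are found deleted or silenced in some breast cancer cell lines. They were matched by symbol to the Ensembl identifiers of the tables, and all 8 were among the 26636 genes listed in all 9 tables. All 9 libraries are labelled as BT549, an established breast cancer cell line, grown in RPMI 1640 with insulin and fetal bovine serum and harvested 48 h after transfection. The group siNC (3 libraries, genotype label WT) received a control siRNA, and the groups siWFDC21P-1 and siWFDC21P-2 (3 libraries each, genotype label WFDC21P knockdown) each received an siRNA against WFDC21P, a pseudogene-derived long noncoding RNA. The question for these genes was which of them had transcripts in the libraries and at what level, set beside what is known of BT549, and whether either siRNA changed them.

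RB1 encodes the retinoblastoma protein, which holds E2F transcription factors until cyclin D with CDK4 or CDK6, and then cyclin E with CDK2, phosphorylate it. CDKN2A and CDKN2B encode the p16 and p15 inhibitors of CDK4 and CDK6, and an alternative first exon of CDKN2A encodes ARF, which restrains MDM2. MTAP, beside them on the short arm of chromosome 9, recycles the methylthioadenosine left by polyamine synthesis and is often lost in the same deletion. SMAD4 is the common partner of the receptor-activated SMADs in TGF-beta and BMP signalling, BRCA1 and BRCA2 act in repair of DNA breaks by homologous recombination, and NF1 encodes neurofibromin, which switches off RAS. BT549 is known as a triple-negative line of mesenchymal appearance without functional RB protein.

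The libraries fell into 3 expression backgrounds that cross the siRNA groups. Background 1 holds siNC replicate 1 and siWFDC21P-1 replicates 1 and 2, background 2 holds siNC replicate 2 and siWFDC21P-1 replicate 3, and background 3 holds siNC replicate 3 and siWFDC21P-2 replicates 1 to 3. Over the tested genes other than the 8, Pearson r of log2(FPKM + 1) was 0.928 to 0.986 for the 10 library pairs within a background and 0.659 to 0.744 for the 26 pairs between backgrounds. FPKM denominators were 28.1 to 29.7 M reads in backgrounds 1 and 2 and 16.3 to 17.4 M in background 3. The targeted WFDC21P stood at 3.08, 0.129 and 6.87 FPKM in siNC replicates 1 to 3, at 0.0629, 0.767 and 0.227 in siWFDC21P-1 and at 4.13, 3.32 and 2.12 in siWFDC21P-2. In backgrounds 1 and 3 every knockdown library was below its control, whereas in background 2 the library labelled siWFDC21P-1 replicate 3 (7 reads) was not below the library labelled siNC replicate 2 (4 reads). Of the mesenchymal markers, VIM stood at 162 to 310 FPKM in background 3, 38.5 to 41.0 in background 1 and 0.517 to 0.699 in background 2, and CDH2, ZEB1 and TWIST1 were likewise highest in background 3. FN1 and SNAI2 were not: FN1 was at 5.91 and 11.2 in background 2, 1.45 to 3.71 in background 1 and 4.56 to 9.13 in background 3, and SNAI2 at 10.9 to 16.0 in background 1, 2.07 to 10.4 in background 3 and 0 in background 2. EPCAM was at 208 to 228 FPKM in background 2 and at most 0.0731 elsewhere. The 9 epithelial markers summed to 1186 to 1827 FPKM in background 2, 216 to 491 in background 1 and 18.3 to 36.2 in background 3. In background 1 this sum came mainly from KRT8 (93.4 to 232), KRT18 (80.35 to 151) and KRT7 (41.5 to 107). Each of them overlapped its range in background 2 (135 to 293, 53.8 to 90.6 and 76.1 to 129.5). The other markers were low in background 1, with CLDN4 at 0.390 to 1.16 and EPCAM, CDH1, KRT19, CLDN7 and ESRP1 at most 0.0819. The 6 mesenchymal markers, of which VIM has the highest values in backgrounds 1 and 3, summed to 6.98 to 12.5, 58.6 to 63.4 and 250 to 378 in backgrounds 2, 1 and 3. The 3 listed leukocyte markers summed to at most 0.422 in any library. The part of these differences in the values below was not tested. Because the backgrounds were drawn from the expression values of these libraries, differences between them are described here and not tested.

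The gene starts of CDKN2A and SMAD4 are shown first, as RefSeq gives them on GRCh38.p14, 250 bases before and 50 bases after each transcription start. That of RB1 is not shown, since its listed window (chr13:48476200-48476499) lies well inside the gene. CDKN2A has 2 starts, one for the ARF transcript (chr9:21995275-21995574, minus strand) and one for the p16 transcript (chr9:21974808-21975107, minus strand), and its deposited value joins both. The SMAD4 start (chr18:51029963-51030262, plus strand) belongs to the member with the lowest values of the 8. Its window lies inside the GENCODE span of the gene, which begins at 51028394. Capitals mark the GC box, GGGCGG on either strand (CCGCCC on the other), which 45% of 35116 promoters of the RefSeq table hold.
CDKN2A, ARF start: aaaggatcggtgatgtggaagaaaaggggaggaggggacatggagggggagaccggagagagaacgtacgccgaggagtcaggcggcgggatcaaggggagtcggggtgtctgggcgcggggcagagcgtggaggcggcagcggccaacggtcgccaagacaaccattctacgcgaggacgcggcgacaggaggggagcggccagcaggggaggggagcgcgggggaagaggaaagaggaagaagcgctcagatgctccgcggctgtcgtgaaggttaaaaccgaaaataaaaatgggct
CDKN2A, p16 start: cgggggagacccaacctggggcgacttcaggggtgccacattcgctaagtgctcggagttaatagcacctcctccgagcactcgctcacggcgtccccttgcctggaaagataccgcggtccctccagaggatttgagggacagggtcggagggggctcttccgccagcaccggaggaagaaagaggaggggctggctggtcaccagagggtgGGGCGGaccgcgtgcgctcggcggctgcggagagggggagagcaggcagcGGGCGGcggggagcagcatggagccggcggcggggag
SMAD4 start: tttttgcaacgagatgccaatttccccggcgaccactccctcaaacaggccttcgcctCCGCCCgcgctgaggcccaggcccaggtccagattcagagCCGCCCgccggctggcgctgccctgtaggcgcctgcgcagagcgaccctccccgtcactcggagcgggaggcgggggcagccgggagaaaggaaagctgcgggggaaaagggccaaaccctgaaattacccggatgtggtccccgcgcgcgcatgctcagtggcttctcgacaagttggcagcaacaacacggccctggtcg
The ARF window held no GC box, the p16 window held 2 and the SMAD4 window held 2. The E2F forms TTTGGCGC, TTTCCCGC, TTTCGCGC and TTTGCCGC, searched on both strands and found in 3.31% of the same promoters, were in none of these 3 windows, which says only that these letters are not there.

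Reads of all 8 genes were found in all 9 libraries, though SMAD4 had only 10 and 26 in background 2, of untested source. A gene was called present in a background when every library there was at 1 FPKM or more, low when every library was under 1 FPKM, and absent when none had over 3 reads. With these limits 8 of 8 genes were present in backgrounds 1 and 3, and 7 of 8 in background 2, where SMAD4 was low. None was absent in any background. A level of at least 1 FPKM in all 9 libraries was thus met by 7 of the 8 genes, against 69.4% of the 13014 genes tested. The groups of libraries did not overlap for 6 of the 8 genes in at least 1 direction, which 69.5% of the genes tested did as well. Background 1 was above both others in every library for 1 gene, RB1 (14.1% of the genes tested), and below them for none (13.6%). Background 2 was below both others for RB1, MTAP and SMAD4 (12.6%) and above them for BRCA2 (19.1%). Background 3 was above for CDKN2A and MTAP (15.1%) and below for NF1 (20.6%). Over the 9028 genes at 1 FPKM or more in all libraries, the median log2 difference was 0.13 for background 1 over background 3 and -0.16 for background 3 over background 2, so FPKM differences between backgrounds of that size say nothing about a single gene.

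**Figure D1:**
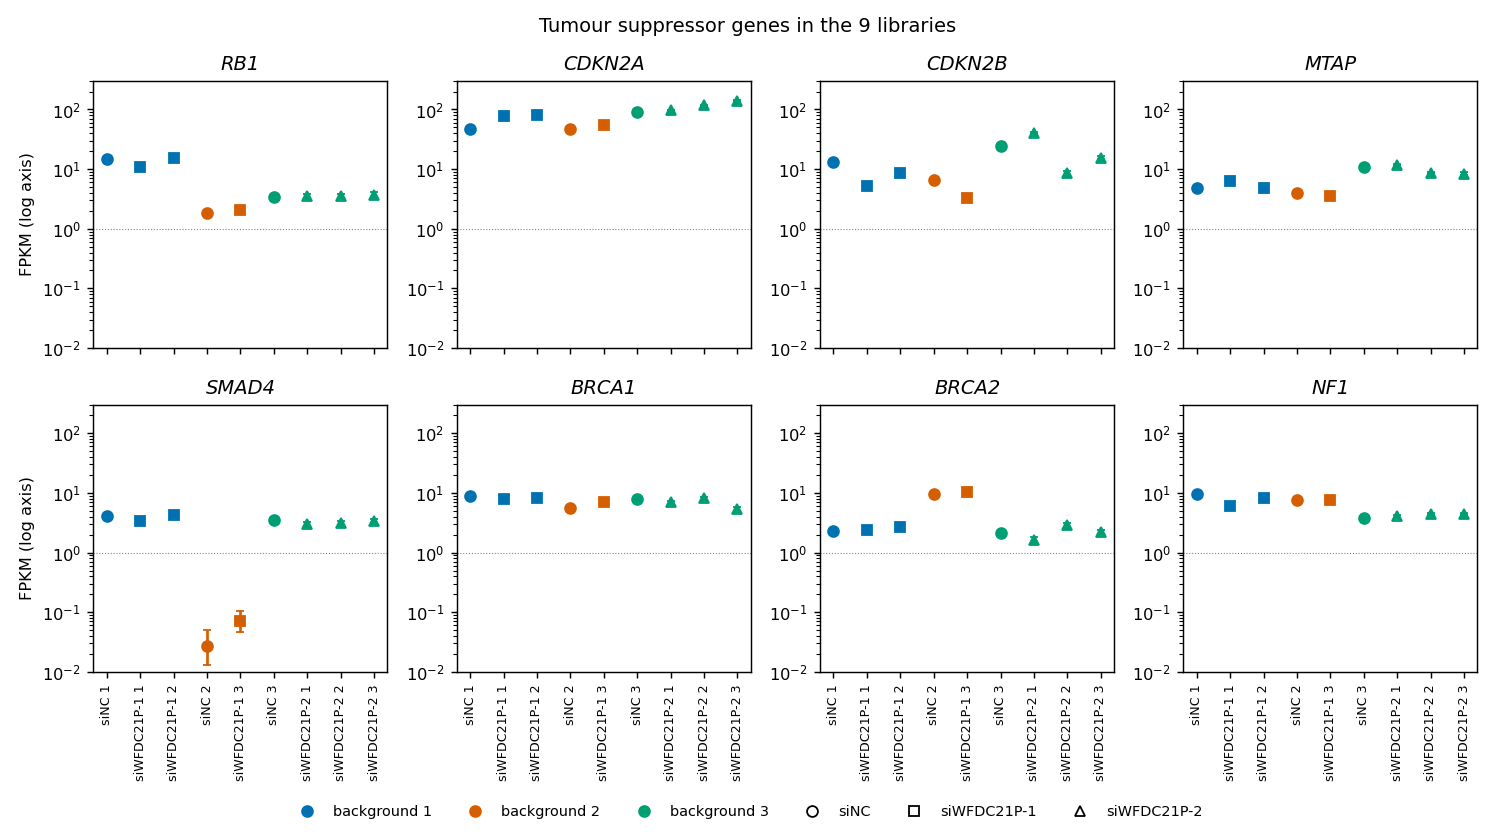
FPKM of the 8 genes (log axis) in the 9 libraries, coloured by background, with circles for siNC, squares for siWFDC21P-1 and triangles for siWFDC21P-2. Bars are 95% Poisson intervals on recovered reads and are mostly hidden by the symbols, and the dotted line is 1 FPKM. SMAD4 in background 2, at 0.0269 and 0.0705 FPKM, is the only gene below the line.

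RB1 (ENSG00000139687, chr13:48303726-48599436, plus strand) was read in every library, although the line named on the labels is known for lacking functional RB. In background 1, siNC replicate 1 had 15.0 FPKM, and siWFDC21P-1 replicates 1 and 2 had 10.8 and 15.5. In background 2 it stood at 1.82 in siNC replicate 2 and 2.04 in siWFDC21P-1 replicate 3, and in background 3 at 3.43 in siNC replicate 3 and 3.52, 3.52 and 3.74 in siWFDC21P-2. The 3 backgrounds did not overlap: the median of background 1 was 4.27 times that of background 3 and 7.79 times that of background 2, and background 3 was 1.82 times background 2. The values rest on 1923 to 2840 reads in background 1, 318 and 353 in background 2 and 345 to 396 in background 3. The tables give 1 value per gene and do not show which exons the reads came from, so full-length transcripts and transcripts lacking part of the gene cannot be told apart.

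The genes around RB1 gave 2 of 21 listed genes within 1 Mb that were absent in one background and present in another. The share of all listed genes with this pattern was not counted. LPAR6, a lysophosphatidic acid receptor gene that lies within an RB1 intron, had 0 reads in both libraries of background 2, 9 to 51 reads in background 1 (0.0716 to 0.401 FPKM) and 172 to 790 reads in background 3 (2.43 to 10.9 FPKM). A count of 0 allows up to 3 reads. MLNR, the motilin receptor gene, 738 kb to the right, was at 1.65 and 2.12 FPKM in background 2 and at most 0.149 elsewhere. Counted from the RefSeq ends of RB1, the nearest protein-coding genes on either side, ITM2B (33.4 kb left, 15.0 to 54.5 FPKM) and RCBTB2 (7.1 kb right, 0.341 to 4.10 FPKM), were read in all 9 libraries. The divergent transcript RB1-DT, which starts next to RB1 and is its nearest listed gene on the left, stood at 1.34 to 2.98 FPKM in background 3 and at most 0.371 in the other backgrounds, an order that RB1 itself did not follow.

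The related and regulating genes RBL1, RBL2, CCNE1, CDK4, CDK6 and CCND1 were present in all 3 backgrounds, while 1 of the 26 pocket protein and cyclin-CDK genes listed was absent in background 1 and 1 in background 2. The related pocket protein genes RBL1 and RBL2 ranged from 3.34 to 8.78 FPKM and from 5.90 to 17.1 FPKM over the 9 libraries. CCNE1, encoding cyclin E1, was at 38.4 and 41.2 FPKM in background 2, above the 11.3 to 20.1 of background 1 and the 6.09 to 18.2 of background 3. CDK4, the kinase that p16 inhibits, was at 28.8 to 49.8 FPKM in background 1, 19.3 to 23.7 in background 2 and 20.6 to 28.99 in background 3, while CDK6 stayed between 4.00 and 8.23 in all 9. CCND1, encoding cyclin D1, was at 52.6 to 88.8 FPKM in background 1 and 19.1 to 35.0 in background 3, without overlap, while the 15.4 and 69.3 of background 2 overlapped both.

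CDKN2A (ENSG00000147889, chr9:21967753-21995301, minus strand) was the highest of the 8 genes per length, and its mean over the libraries was at the 96.9th percentile of the genes tested. It stood at 47.8 FPKM in siNC replicate 1 and 77.6 and 79.8 in siWFDC21P-1 replicates 1 and 2. In background 2 the values were 47.2 in siNC replicate 2 and 55.8 in siWFDC21P-1 replicate 3, and in background 3 they were 89.9 in siNC replicate 3 and 97.3, 117 and 140 in siWFDC21P-2. All 4 libraries of background 3 were above the other 5, while backgrounds 1 and 2 overlapped. Of its exon bases, 7.88% also lie in CDKN2B-AS1 on the opposite strand, which stood at 0.218 to 2.33 FPKM, and whether the counting used strand is not given in the sources used here. The reads of the 2 starts printed above cannot be told apart in these tables.

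CDKN2B (ENSG00000147883, chr9:22002903-22009363, minus strand), next to CDKN2A, was present throughout, with wide differences among libraries of one background. It stood at 13.1 FPKM in siNC replicate 1 against 5.20 and 8.76 in siWFDC21P-1 replicates 1 and 2, and at 6.57 in siNC replicate 2 against 3.23 in siWFDC21P-1 replicate 3. In background 3 it stood at 24.2 in siNC replicate 3 and at 40.0, 8.64 and 15.6 in siWFDC21P-2. Background 3 lay above background 2 but overlapped background 1, so no background stood apart from both others. Within background 3, CDKN2B was higher in siNC replicate 3 and siWFDC21P-2 replicate 1 than in siWFDC21P-2 replicates 2 and 3. VIM split in the same direction (310 and 309 against 162 and 178 FPKM). COL3A1, a collagen gene and fibroblast marker (5.75 and 23.0 against 242 and 222), and TWIST1 (10.1 and 11.9 against 35.5 and 34.9) split in the opposite direction. CDH2 did not split (17.7 and 15.9 against 14.7 and 18.1), and the share of all genes that did was not counted. The part of this split in the siRNA values of CDKN2B was not tested.

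MTAP (ENSG00000099810, chr9:21802543-21937651, plus strand) was present in every library with 1457 to 3031 reads. Its values were 4.74 FPKM in siNC replicate 1, 6.22 and 4.86 in siWFDC21P-1 replicates 1 and 2, 3.96 in siNC replicate 2 and 3.55 in siWFDC21P-1 replicate 3. In background 3 they were 10.7 in siNC replicate 3 and 11.9, 8.56 and 8.42 in siWFDC21P-2. The 3 backgrounds did not overlap, the median of background 3 was 2.56 times that of background 2, and the median of background 1 was 0.505 times that of background 3.

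Around these 3 genes, 18 genes of the window were listed in all tables, and none was absent in one background and present in another. MIR31HG, the host gene of a microRNA to the left of MTAP, was at 4.17 to 7.41 FPKM in background 3 and 0.464 to 1.40 elsewhere, and the pseudogene UBA52P6, beside CDKN2B, at 1.77 to 4.85 and 0.838 to 1.27. Both shared with CDKN2A and MTAP that every library of background 3 was above the other 5, as was so for 15.1% of the genes tested. FOCAD, HACD4, KLHL9, IFNE, IFNWP19 and CDKN2B-AS1 of the same window shared it too, and its remaining listed genes did not. No background lacked reads of MTAP, CDKN2A or CDKN2B. PRMT5, a methyltransferase gene known for its tie to MTAP loss, was at 6.50 to 8.11 FPKM in background 1, 15.8 and 18.5 in background 2 and 9.95 to 13.5 in background 3.

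SMAD4 (ENSG00000141646, chr18:51028394-51085045, plus strand) was the only one of the 8 genes under 1 FPKM anywhere. In background 1, siNC replicate 1 had 4.08 FPKM and siWFDC21P-1 replicates 1 and 2 had 3.43 and 4.23, and in background 3 it stood at 3.56 in siNC replicate 3 and 3.02, 3.18 and 3.38 in siWFDC21P-2. In background 2 it stood at 0.0269 in siNC replicate 2 (10 reads, 95% Poisson interval 0.0129 to 0.0495) and at 0.0705 in siWFDC21P-1 replicate 3 (26 reads, 0.0460 to 0.103), where the other libraries had 690 to 1647 reads. The lowest of the other 7 libraries was 42.9 times the highest of background 2, and backgrounds 1 and 3 overlapped. Reads were few but not 0 in background 2, and the source of the 10 and 26 reads was not tested. A level under 1 FPKM in both libraries of background 2 with at least 1 FPKM in the other 7 was found for 262 of the 13014 genes tested (2.01%), and a background 2 maximum under 0.1 times the lowest other value for 228 (1.75%).

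Among the 10 listed genes within 1 Mb of SMAD4, the nearest on the left was also lowest in both libraries of background 2. ELAC1, a tRNA 3′ processing gene 42.1 kb away, had 1 and 16 reads in background 2 (0.00890 and 0.143 FPKM), 53 to 101 reads in background 1 (0.457 to 0.880 FPKM) and 40 to 84 reads in background 3 (0.618 to 1.26 FPKM), with no overlap of background 2 with the others. Its level was under 1 FPKM in every library of background 1 as well. ME2, the mitochondrial malic enzyme gene 76 kb away, was at 8.71 and 11.7 FPKM in background 2, within the 7.89 to 13.9 of the other 7 libraries. MEX3C, 89.5 kb to the right, was at 5.12 and 8.49 FPKM in background 2 against 2.00 to 10.4 in the others. The pseudogene SRSF10P1, between SMAD4 and MEX3C, was at most 0.0895 FPKM in any library. In the plot of neighbouring genes, background 2 was below both other backgrounds at SMAD4 and ELAC1 and not at ME2 or MEX3C.

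**Figure D2:**
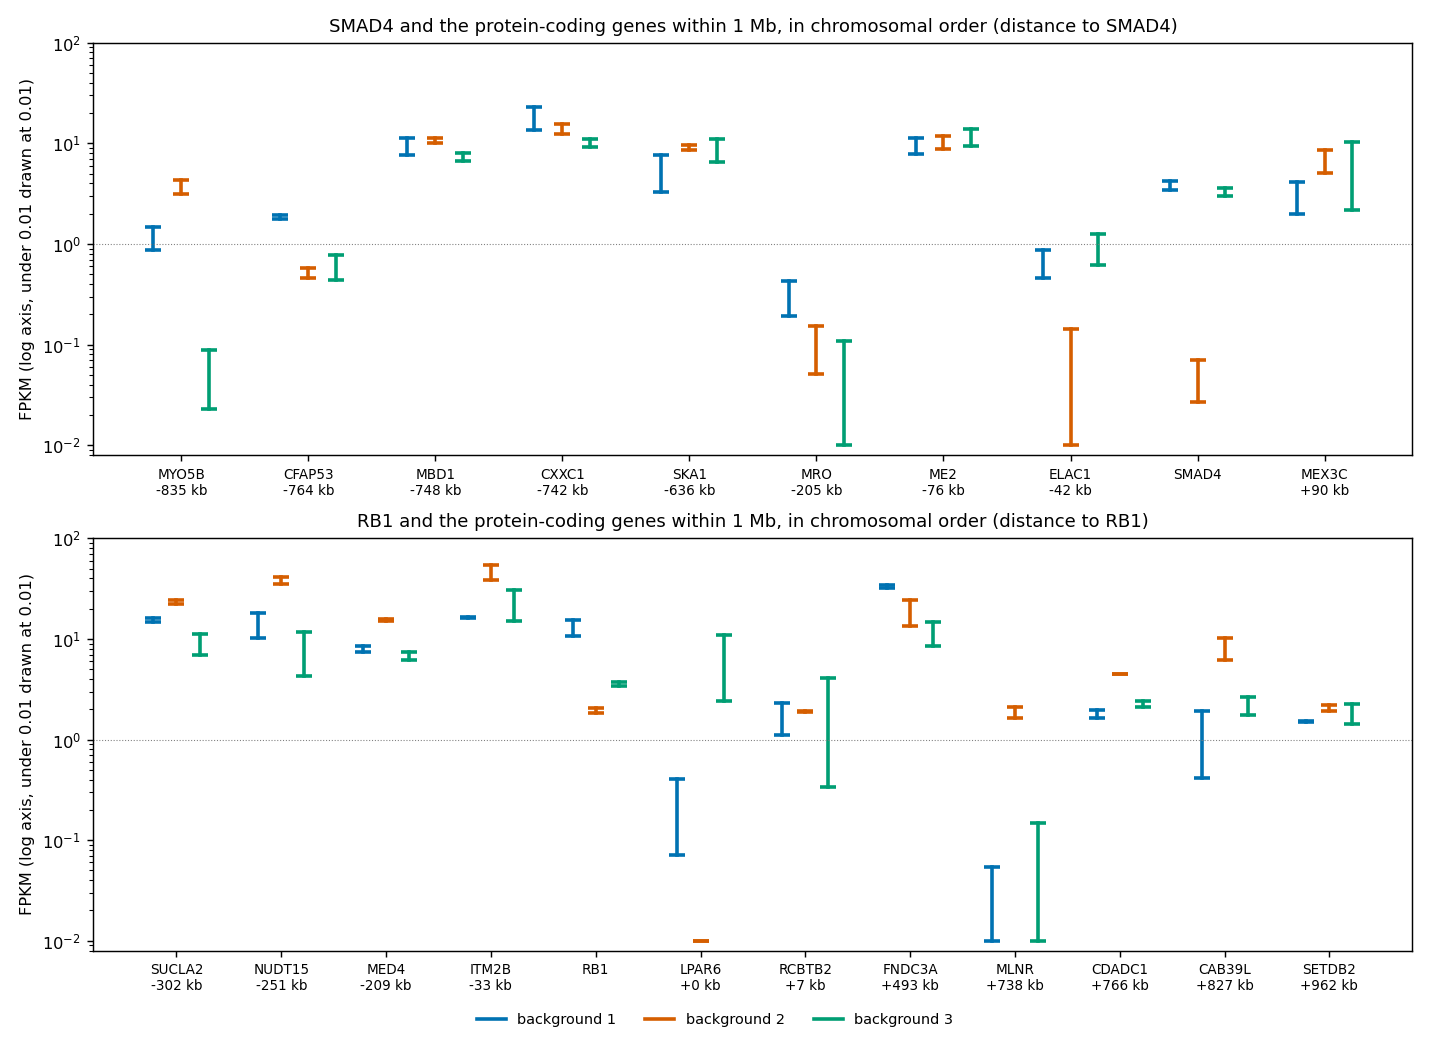
Lowest to highest FPKM (log axis, values under 0.01 drawn at 0.01) in each background for SMAD4 and RB1 and the listed protein-coding genes within 1 Mb, in chromosomal order with their distance. Background 2 is below both other backgrounds at SMAD4 and ELAC1, with ME2 and MEX3C above 5 FPKM, and LPAR6 has 0 reads in background 2 beside an RB1 of 1.82 and 2.04 FPKM.

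The receptor-activated SMAD genes SMAD2 and SMAD3 were present in all backgrounds at unequal levels. SMAD3 stood at 2.02 and 2.63 FPKM in background 2, below the 7.29 to 12.4 of background 1 and the 8.05 to 10.51 of background 3. SMAD2, on the same chromosome as SMAD4, stood at 4.65 to 6.56 in background 1, 2.67 and 2.97 in background 2 and 1.54 to 1.89 in background 3. The coreceptor gene TGFBR3 was at 0.723 and 0.735 FPKM in background 2, 10.9 to 15.5 in background 1 and 1.97 to 8.96 in background 3.

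BRCA1 (ENSG00000012048, chr17:43044295-43170245, minus strand) was the most even of the 8 genes across the backgrounds. It stood at 9.04 FPKM in siNC replicate 1 and 7.91 and 8.26 in siWFDC21P-1 replicates 1 and 2, at 5.53 and 6.93 in siNC replicate 2 and siWFDC21P-1 replicate 3, and at 7.98 in siNC replicate 3 and 6.97, 8.21 and 5.41 in siWFDC21P-2. The medians of the backgrounds, 8.26, 6.23 and 7.47 FPKM, differed by at most 1.33 times, and none of the 3 stood apart from both others. A partial copy, the pseudogene BRCA1P1, lies beside it and was at 2.21 to 12.1 FPKM, and the values of both are uncertain to the extent that the counting could split shared reads.

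BRCA2 (ENSG00000139618, chr13:32315474-32400266, plus strand) was high in the libraries in which SMAD4 was low. It stood at 9.41 FPKM in siNC replicate 2 and 10.4 in siWFDC21P-1 replicate 3, against 2.28 in siNC replicate 1, 2.40 and 2.72 in siWFDC21P-1 replicates 1 and 2, 2.1 in siNC replicate 3 and 1.63, 2.86 and 2.19 in siWFDC21P-2. Both libraries of background 2 were above the other 7, and the medians of backgrounds 1 and 3 were 0.243 and 0.217 times that of background 2. Some of the genes around BRCA2 were also above the other 7 libraries in background 2 and others were not. FRY, 16 kb to the left, was at 1.79 and 4.16 FPKM in background 2 and at most 0.152 elsewhere. N4BP2L1, the nearest listed gene on the right, did not stand apart, at 0.251 and 0.664 FPKM in background 2, 0.0113 to 0.0390 in background 1 and 0.192 to 0.780 in background 3. N4BP2L2, 32.2 kb to the right, was at 9.65 and 11.4 in background 2 against 3.14 to 4.44, and PDS5B, a cohesin regulator gene 186 kb to the right and named after its values were seen, at 15.6 and 18.0 against 3.32 to 5.56.

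Of the genes that work with BRCA1 and BRCA2, BARD1 was also highest in background 2. BARD1, the BRCA1 partner, was at 6.88 and 7.18 FPKM in background 2, 2.42 to 2.90 in background 1 and 4.09 to 5.07 in background 3. PALB2, which links BRCA1 to BRCA2, was highest in background 3 (6.22 to 8.53), against 3.57 to 4.62 and 4.29 and 4.35 in backgrounds 1 and 2.

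NF1 (ENSG00000196712, chr17:31094927-31382116, plus strand) was lowest in background 3. It stood at 9.57 FPKM in siNC replicate 1, 6.14 and 8.32 in siWFDC21P-1 replicates 1 and 2, 7.56 in siNC replicate 2 and 7.71 in siWFDC21P-1 replicate 3. In background 3 it stood at 3.87 in siNC replicate 3 and 4.03, 4.39 and 4.44 in siWFDC21P-2. All 4 libraries of background 3 were below the other 5, at a median 0.552 times that of background 2. Of the genes lying inside NF1, the protein-coding OMG, EVI2A and EVI2B were at most 0.182 FPKM in any library. The pseudogene AK4P1, inside NF1 too, was at 18.6 to 19.6 FPKM in background 1, 12.4 and 13.3 in background 2 and 0.872 to 1.29 in background 3. Its values in background 3 were thus below those of the other 5 libraries. They are uncertain to the extent that the counting could take in reads of its parent gene, which was not tested. Besides AK4P1, the genes TEFM, ATAD5, CRLF3, SUZ12P1, BLMH, CPD, SH3GL1P2, C17orf75 and ZNF207 within 1 Mb had every library of background 3 below the other 5. The remaining listed genes of the window, SUZ12 and UTP6 among them, did not, and 20.6% of the genes tested did. RNF135 to the left was at 2.16 to 4.93 FPKM in all 9. RAB11FIP4, 14 kb to the right, was at 2.04 and 2.73 FPKM in background 2 and at most 0.567 elsewhere.

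**Figure D3:**
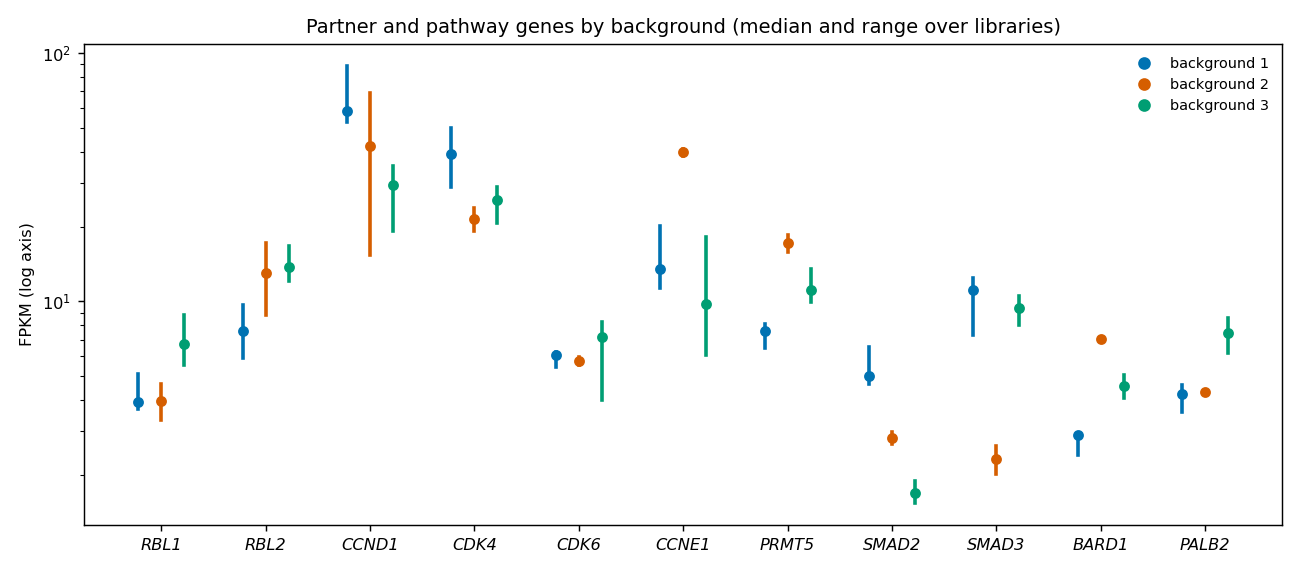
Median (point) and lowest to highest (line) FPKM on a log axis of 11 partner and pathway genes in backgrounds 1 to 3. CCNE1 and BARD1 are highest and SMAD3 is lowest in background 2, SMAD2 is highest in background 1, and each gene is above 1 FPKM in all 9 libraries.

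The siRNA comparisons were made with the background as a term, so that siWFDC21P-1 is set against siNC replicates 1 and 2, and siWFDC21P-2 against siNC replicate 3 alone. The p-values measure only the spread between these libraries, which may be technical, since nothing states separate cultures. The libraries of background 2 are named as labelled, since WFDC21P was not lower in its knockdown library. In bulk RNA, fewer cells with a transcript and less of it per cell cannot be told apart. None of the 8 genes passed an adjusted p of 0.05 for either siRNA in limma, where 3 of 13014 genes (0.0231%) passed for siWFDC21P-1 and 0 (0%) for siWFDC21P-2. At an unadjusted p under 0.05 there was 1 of the 8 for siWFDC21P-1, CDKN2A (13.8% of all genes), and 0 for siWFDC21P-2 (5.24%). For siWFDC21P-1, dropping siNC replicate 1, siWFDC21P-1 replicate 1 or siWFDC21P-2 replicate 2 or 3 left 0 genes, and dropping siNC replicate 2 or siWFDC21P-1 replicate 2 or 3 left 1. When siWFDC21P-2 replicate 1 was dropped the count was 151, and that for siWFDC21P-2 was 886, with none of the 8 genes among them. The median log2 fold change of the 8 genes was 0.01 for siWFDC21P-1 and -0.04 for siWFDC21P-2, beside 0.03 and 0.02 over all genes tested. In the test of the difference between the siRNAs the adjusted p of the 8 genes in limma was 0.852 or more.

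CDKN2A was above the control of its background in all 6 knockdown libraries, and the share of all genes for which this held was not counted. Its level was 1.62, 1.67 and 1.18 times the control in siWFDC21P-1 replicates 1 to 3 and 1.08, 1.299 and 1.56 times in siWFDC21P-2, where 27.9% and 26.9% of the genes tested had all 3 libraries above the control. The log2 fold change was 0.51 ± 0.21 (SE) with siWFDC21P-1 (limma, adjusted p = 0.349) and 0.37 ± 0.26 with siWFDC21P-2 (limma, adjusted p = 0.756), so neither passed. The 3 siWFDC21P-2 values share 1 control library.

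CDKN2B was below its control in 5 of the 6 knockdown libraries, and here too the share of all genes was not counted. The ratios were 0.396, 0.668 and 0.491 in siWFDC21P-1 (20.7% of genes had all 3 below) and 1.65, 0.357 and 0.644 in siWFDC21P-2. The log2 fold change was -0.85 ± 0.55 with siWFDC21P-1 (limma, adjusted p = 0.532) and -0.43 ± 0.68 with siWFDC21P-2 (limma, adjusted p = 0.865). The libraries of siWFDC21P-2 thus lay on both sides of the control, and the value was 0.05 without siWFDC21P-2 replicate 2 and -0.995 without siWFDC21P-2 replicate 1 (limma, adjusted p = 0.166).

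The other 6 genes had log2 fold changes between -0.20 and 0.12 with siWFDC21P-1 and between -0.21 and 0.12 with siWFDC21P-2, and the largest relative to its error was that of NF1 with siWFDC21P-1, -0.20 ± 0.19. BRCA2 was above its control in all 3 siWFDC21P-1 libraries (1.05, 1.19 and 1.10 times) with a log2 fold change of 0.12 ± 0.20. NF1 was above it in all 3 siWFDC21P-2 libraries (1.04, 1.13 and 1.15 times) with 0.12 ± 0.23, as was RB1 (1.03, 1.02 and 1.09 times) with 0.05 ± 0.24. SMAD4 was below it in all 3 siWFDC21P-2 libraries (0.850, 0.893 and 0.951 times, where 26% of genes had all 3 below) with -0.12 ± 0.20. In background 2 SMAD4 was 2.62 times higher in siWFDC21P-1 replicate 3 than in siNC replicate 2 (26 against 10 reads, 95% interval 1.22 to 6.08 for counting error), both far below the other backgrounds. Without siNC replicate 2, and so without background 2, the siWFDC21P-1 value of CDKN2A was 0.71 ± 0.27 and that of BRCA1 turned from 0.04 to -0.14, with none of the 8 past the threshold.

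**Figure D4:**
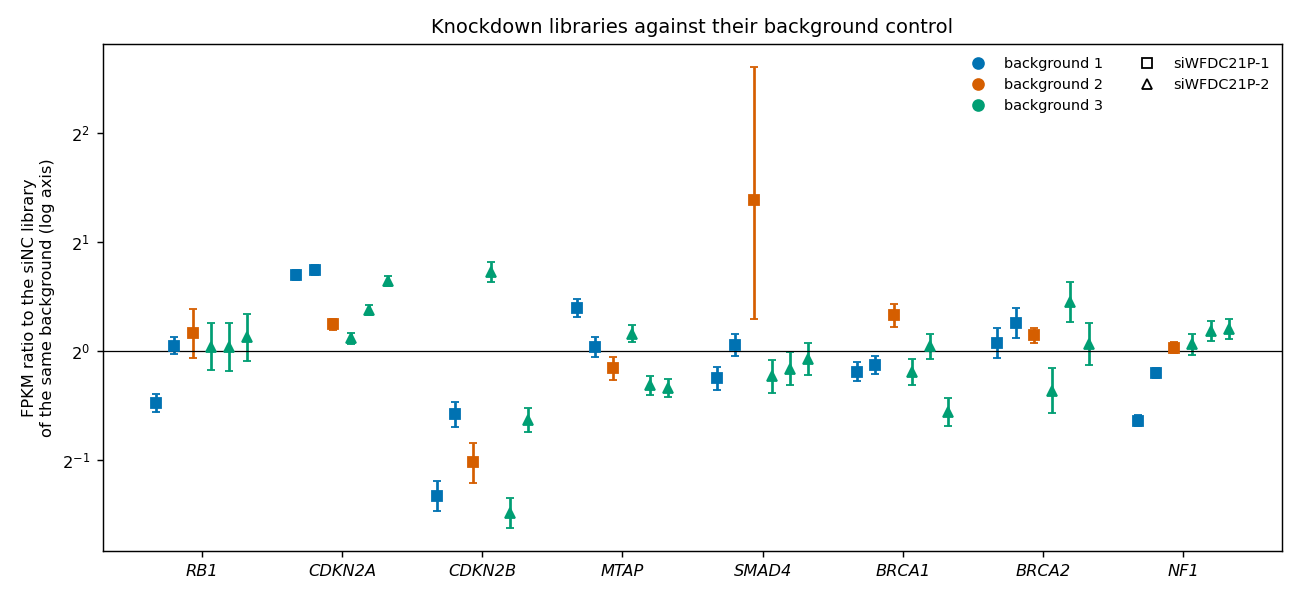
FPKM of the 8 genes in each knockdown library divided by the siNC library of the same background (log axis), coloured by background, with squares for siWFDC21P-1 and triangles for siWFDC21P-2; bars are 95% intervals for counting error. CDKN2A is above 1 in all 6 libraries and CDKN2B is below 1 in 5, for which shares over all genes were not counted. The SMAD4 value of background 2 has the widest bar, 1.22 to 6.08.

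In the pathways of these genes 1 gene passed the test. CDKN1A, encoding the p21 inhibitor of CDK2, fell with siWFDC21P-1 by 2.42 ± 0.21 on the log2 scale (limma, adjusted p = 0.0442): it was at 324 FPKM in siNC replicate 1 against 65.8 and 54.6, and at 50.6 in siNC replicate 2 against 8.55. The call was lost without any 1 of 7 of the 9 libraries (limma, adjusted p = 0.0565 to 0.306), siNC replicate 3 and siWFDC21P-2 replicate 1 being the exceptions. CDKN1A was also lower in siWFDC21P-2 replicates 1 to 3, at 11.7, 7.52 and 10.05 FPKM against 23.8 in siNC replicate 3. It was not called there, and 26% of the genes tested had all 3 below. With siWFDC21P-1 it is the 1 gene called of 25 tested pocket protein and cyclin-CDK genes and of 15 genes of the ARF and MDM2 pathway. No gene was called among 20 E2F targets, 17 methionine, polyamine and PRMT5 genes, 20 SMAD and TGF-beta receptor genes, 29 BRCA and homologous recombination genes, 18 RAS and RAS GTPase activating genes and 29 other breast tumour suppressors, and none in any of the 8 lists with siWFDC21P-2. The medians of these lists lay between -0.26 and 0.12 with siWFDC21P-1 and between -0.26 and 0.15 with siWFDC21P-2.

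Apart from CDKN1A with siWFDC21P-1, the genes with the smallest p in each list did not pass. CCNE2, encoding cyclin E2, had a log2 fold change of -1.28 ± 0.28 with siWFDC21P-1 (limma, adjusted p = 0.140), and XRCC2, a homologous recombination gene, one of 0.68 ± 0.18 (limma, adjusted p = 0.196). TGFBR3 had 1.38 ± 0.34 and SMURF2, encoding a ubiquitin ligase of the SMAD pathway, -1.21 ± 0.39 with siWFDC21P-2 (limma, adjusted p = 0.756 for both).

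The gene most like each member was taken by Pearson r of log2(FPKM + 1) over the 9 libraries, which share 3 backgrounds and are not 9 independent points. KLF4 was most like SMAD4 (r = 0.999, n = 9 libraries), at 0.512 and 0.603 FPKM in background 2 and 12.3 to 16.7 elsewhere, followed by TTC28 (r = 0.995) and FKBP10 (r = 0.994). STOX1 was most like BRCA2 (r = 0.993), at 8.73 and 11.9 FPKM in background 2 and at most 0.935 elsewhere. RTN4RL2 was most like RB1 (r = 0.992), NFE2 most like NF1 (r = 0.991) and ZIC2 most like MTAP (r = 0.989). For CDKN2A and CDKN2B the highest r was 0.971 (SSR2) and 0.966 (CAMSAP1), and for BRCA1, the most even gene, 0.880 (ITGB3BP).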

How the data were processed

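RNA of 9 libraries labelled as BT549 was sequenced, and the authors deposited 1 table per library of FPKM (fragments scaled to transcript length and library size) per Ensembl gene. The build hg38 and the tools Bowtie2 2.2.3, HTSeq 0.6.0 and HISAT2 2.1.0 are named, without their roles, per the submitters' processing notes; annotation and strand handling are not given in the sources used here. The tables list 34377 genes (backgrounds 1 and 2) or 29104 (background 3), and 26636 are in all 9. Of the low values in a library, 96.7 to 97.4% were whole multiples of 1 read within 0.02 reads. Whole reads were recovered for 24687 genes (92.7%), among them the 8 members. For RB1, BRCA1 and NF1 the GENCODE exon lengths (6452, 9187 and 27130 bases) did not give whole reads. Lengths of 6169, 8922 and 26685 bases were searched so that all 9 values became whole. The 95% exact Poisson intervals of the 8 members cover counting error only. No 2 libraries held identical values.

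Values were taken as log2(FPKM + 1) for the 13014 genes whose mean reached 1 FPKM, all 8 members included, and were fitted with limma 3.58.1 under R 4.3.3, with siRNA group and background in the model, trended empirical Bayes variances and Benjamini-Hochberg adjustment over all tested genes at 0.05. A fold change on this scale understates that of low genes. A run on simulated data used this model without the variance trend, so it is no test of the trended fit. The members, lists, backgrounds and tests were chosen with earlier results of these data known. The rule for naming took all 8 members, in each 1 Mb window the nearest gene on either side reaching 1 FPKM and those absent in one background and present in another, a fixed set of partners, in each pathway list the called genes and those of smallest p, and for each member the genes with the highest r; only some of the last 2 kinds are printed, and some genes of the fixed set are not reported here. Neighbours outside this rule were added after their values were seen. They are ITM2B, ME2, SRSF10P1, N4BP2L1, PDS5B, the genes within NF1, and those named only for their order of backgrounds around CDKN2A and NF1. Coordinates of genes are from GENCODE and of promoters and neighbour distances from RefSeq, both on GRCh38; promoters on chromosome 8 were not counted. Alternatives changed the pseudocount (0.1 or 0.5), the filter, the background term, the replicate block, the libraries in the fit and the limits of absence (10 reads) and presence (0.5 FPKM), and limma-voom on the recovered reads was added after the data had been seen.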

Additional observations from a re-analysis of the deposited data

How the results depend on the processing

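Calling a member absent at 10 reads or present at 0.5 FPKM moved no member to another class. Genes called with siWFDC21P-1 (3) numbered 3 with a pseudocount of 0.1 or 0.5, 0 without the filter on low values, 0 with the naming style of the tables in place of the background, 0 without either term, 0 with the replicate block, 0 with backgrounds 1 and 2 alone and 1 with limma-voom, and 0 to 151 on leaving out each library. Those with siWFDC21P-2 (0) numbered 17 without the filter and 0 to 886 on leaving out each library, and 0 in the other settings, the replicate block included. The cause was not tested. Same-numbered libraries deviated from their group means with r of -0.683 to 0.667. These deviations hold the differences between backgrounds, so they cannot show whether the replicate numbers pair the libraries. The replicate block moved no member past the threshold. Of 264 values of the 8 members under alternatives, 238 kept their direction, 26 did not and 0 passed the threshold (smallest adjusted p 0.157 in limma). With siWFDC21P-1, SMAD4 turned to 0.13 with a pseudocount of 0.1 and 0.048 with limma-voom. With the naming style, RB1 turned to 0.32, SMAD4 to 0.35 and BRCA2 to -0.16. Without a term, RB1 turned to 0.52, MTAP to -0.26, SMAD4 to 0.0195 and NF1 to 0.13 with siWFDC21P-1, and with siWFDC21P-2 RB1 to -0.35, CDKN2B to 0.43, MTAP to 0.60, SMAD4 to 0.54, BRCA2 to -0.57, NF1 to -0.53, GADD45A to 0.47, AMD1 to -0.28, SMURF2 to 0.20 and RASA1 to 0.69. By its construction this last fit sets libraries of different backgrounds against each other, and the fit with the naming style does so for backgrounds 1 and 2. Leaving out each library gave ranges with siWFDC21P-1 of -0.20 to 0.11 for RB1, -0.13 to 0.18 for MTAP, -0.080 to 0.060 for SMAD4, -0.37 to 0.025 for NF1 and -0.14 to 0.28 for BRCA1, and with siWFDC21P-2 of -0.995 to 0.048 for CDKN2B and -0.10 to 0.18 for BRCA2. Without siNC replicate 3 no siWFDC21P-2 value can be had, since it is the only control of background 3. SMAD4 in background 2 rests on 10 and 26 reads, which limits the precision of its level there.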
